A study of Homo sapiens with 2 samples.

Results

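RNA was measured in cells of the Hodgkin lymphoma (HL) cell line L-428, and class I protein was not measured on these arrays. The 9 genes described here belong to the pathway by which MHC class I molecules display peptides. They are the heavy chain genes HLA-B, HLA-C, HLA-E and HLA-F, the light chain gene B2M, the peptide loading genes TAP1, TAP2 and TAPBP, and the regulator NLRC5. They were chosen by gene symbol, and each probe set annotated to exactly 1 of these symbols was taken, which gave 25 of the 54675 probe sets on the array. All 9 genes were among the 11794 genes measured above the filter on low signals. Of the probe sets annotated to several symbols, 0 carried a symbol of these 9 genes. The annotation gave several symbols to 7 probe sets of the MHC class II, MICA and MICB genes.

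Stably transfected L-428 cells were compared, with 1 array per condition. The control cells carried pcDNA6.2-GW/EmGFP-miR-neg and the PRAME knock-down cells pcDNA6.2-GW/EmGFP-miR-PRAME. L-428 is an established HL cell line that expresses PRAME, a cancer/testis antigen known as a repressor of retinoic acid signaling. The latter vector makes an artificial microRNA against PRAME, both also encode the green fluorescent protein EmGFP, and transfectants had been selected with blasticidin. Whether the cells were a pool or a clone, and their time in culture, is not given in the sources used here. No condition had a replicate, and therefore neither a test nor an error between cultures can be given.

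MHC class I molecules present peptides from inside the cell to CD8+ T cells. The proteasome makes the peptides, the transporter TAP1-TAP2 carries them into the endoplasmic reticulum, and tapasin (encoded by TAPBP) holds the empty complex of heavy chain and beta-2-microglobulin at the transporter until a peptide is bound. NLRC5 drives transcription of most of these genes from a shared promoter module, and interferon gamma and NF-kB raise them further. Loss of class I molecules from the surface is frequent in HL cells and is often accompanied by mutations of B2M. RNA levels do not show how much class I protein reaches the surface.

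The values were MAS5 signals on a linear scale, a summary of the probe pairs of a probe set after background subtraction. Both arrays had the same trimmed mean signal of 500.1, which left out the highest and lowest 2% of the values. From each log2 ratio (knock-down over control) the median of all probe sets above the filter, 0.045, was subtracted; the filter was a mean signal of 97.7. PRAME, the targeted gene, was measured by 204086_at with a signal of 2115 with the control vector and 1251 after knock-down (log2 ratio -0.80). All 8 markers of Hodgkin and Reed-Sternberg cells were above the filter, with signals from 782 to 11799 on both arrays. Of these, CD40 (1850 and 1146, log2 ratio -0.74) and FUT4 (1177 and 782, -0.63) were at least 1.5-fold lower after knock-down. The log2 ratios of 4 of the 8 were above 0. Of 6 T cell markers and of 6 monocyte and macrophage markers 0 were above the filter, and the highest of their signals was 107. Of 4 natural killer cell markers only NCAM1 was (signals 73.2 and 172). Of 5 fibroblast markers COL1A1 (1199 and 790), COL1A2 (53.4 and 184) and DCN (194 and 202) were above the filter. The summed signal of the T cell markers was 218 and 361 in control and knock-down cells, that of the monocyte and macrophage markers 179 and 223, that of the natural killer cell markers 167 and 323, and that of the fibroblast markers 1503 and 1233. Their part in the results was not tested. RNA came from whole cultures, so fewer cells that express a gene and less RNA per cell cannot be told apart.

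None of the 9 genes differed by 1.5-fold or more between PRAME knock-down and control cells. Their log2 ratios ran from -0.48 for TAP1 to 0.21 for HLA-B, with a median of 0.068, whereas the median of all measured genes was -0.0069. Among all measured genes, 13.0% differed by at least 1.5-fold in either direction, 5.42% lower and 7.54% higher, and 2.46% by at least 2-fold, 0.729% lower and 1.73% higher. The share depends on the signal. It was 20.5% for probe sets with a mean signal under 500, 10.0% between 500 and 2000, 5.64% between 2000 and 8000, and 0.258% at 8000 or more. Of the 23 probe sets of the 9 genes above the filter, 11 had a mean signal of 8000 or more. In this signal range the count of 0 past the threshold is close to the background. At lower signals, 4 probe sets lay under 500, 5 between 500 and 2000, and 3 between 2000 and 8000.

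**Figure D1:**
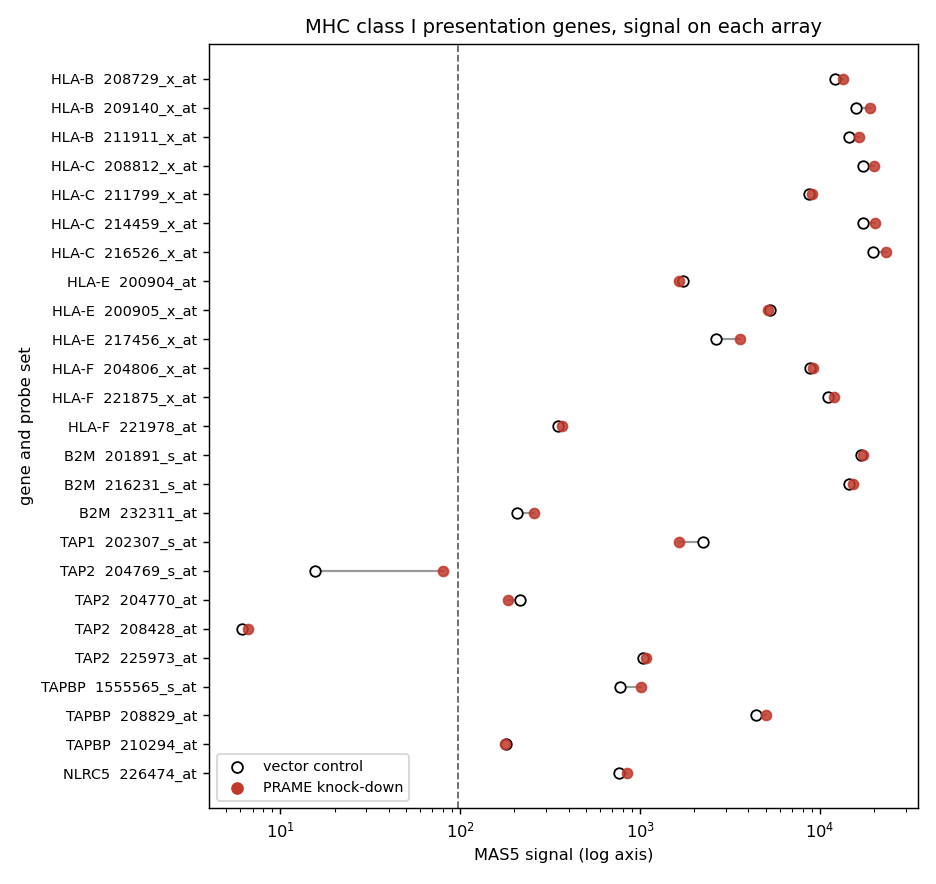
MAS5 signal (log axis) of each probe set of the 9 genes in control cells (open circles) and PRAME knock-down cells (red circles), 1 array per condition. The dashed line is the filter at 97.7; the circles nearly coincide for most probe sets, TAP1 is lower in the knock-down cells (2237 and 1652), and the widest gap belongs to a TAP2 probe set below the filter (15.5 and 80.3).

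HLA-B and HLA-C, the classical heavy chains that present peptides to CD8+ T cells, had slightly higher signals in the PRAME knock-down cells in all 7 probe sets. For HLA-B, the signal of 209140_x_at was 15902 with the control vector and 19024 after knock-down (log2 ratio 0.21), that of 211911_x_at was 14499 and 16561 (0.15), and that of 208729_x_at was 12160 and 13473 (0.10). The 3 probe sets thus lay on the same side of 0 within a range of 0.11. For HLA-C, the signal of 216526_x_at was 19660 with the control vector and 23354 after knock-down (0.20), that of 214459_x_at was 17457 and 20173 (0.16), that of 208812_x_at was 17391 and 19918 (0.15), and that of 211799_x_at was 8655 and 9047 (0.019). None of these differences reached 1.2-fold. The 774 probe sets with a mean signal of 8000 or more had a median log2 ratio of 0.092 and an SD of 0.18, and between 33.3% and 76.5% of them had a lower log2 ratio than the HLA-B and HLA-C probe sets. The brightest probe set of HLA-B and that of HLA-C lay just above the upper quartile of these probe sets of like signal. The other HLA-B and HLA-C probe sets lay between the quartiles. After quantile normalization of both arrays the log2 ratio was 0.097 for HLA-B and -0.00023 for HLA-C.

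HLA-E and HLA-F are non-classical heavy chains, and HLA-E presents leader peptides of other heavy chains to receptors of natural killer cells. The HLA-E probe sets differed in direction. The signal of 200905_x_at was 5275 with the control vector and 5151 after knock-down (log2 ratio -0.079), that of 200904_at was 1739 and 1635 (-0.13), and that of 217456_x_at was 2655 and 3608 (0.40). The last value is the highest log2 ratio of the 23 probe sets, and 94.8% of the 4098 probe sets with a mean signal between 2000 and 8000 were below it. The other two HLA-E probe sets were in the middle of their signal ranges (50.4% and 41.9% of the probe sets were below them). For HLA-F, the signal of 221875_x_at was 11136 and 12042 (0.068), that of 204806_x_at was 8854 and 9130 (-0.00076), and that of 221978_at was 348 and 367 (0.032). All 3 HLA-F probe sets were thus within 0.07 of 0 on the log2 scale.

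Heavy chain genes are similar in sequence, and 11 of their 13 probe sets end in _x_at. The manufacturer gives this ending to probe sets whose probes also match other transcripts. The part of each signal that came from the named gene was not tested. The 11 probe sets with this ending had a median log2 ratio of 0.15, and the 2 others, 200904_at for HLA-E and 221978_at for HLA-F, had -0.13 and 0.032. HLA-G, whose product is best known from the placenta, was also represented only by probe sets of this kind. Their signals were 15142 and 13031 for 211528_x_at (log2 ratio -0.26), 12692 and 15652 for 211530_x_at (0.26), 11679 and 12717 for 211529_x_at (0.078), and 5751 and 6191 for 210514_x_at (0.061). The 4 probe sets lay on both sides of 0. The pseudogene HLA-J had signals of 8436 and 7889 (-0.14). The kept probe set of the antisense transcript HLA-F-AS1, 222279_at, had signals of 744 and 941 (0.29).

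B2M encodes beta-2-microglobulin, the light chain that every class I molecule needs to leave the endoplasmic reticulum. The signal of 201891_s_at was 16820 with the control vector and 17281 after knock-down (log2 ratio -0.0061), and that of 216231_s_at was 14592 and 15262 (0.020). Both probe sets were nearly equal on the 2 arrays. The third probe set, 232311_at, had a low signal of 208 and 258 (0.27). The sign of the B2M log2 ratio changed with the processing, from -0.13 after quantile normalization to 0.25 when probe sets ending in _s_at, _x_at or _a_at were left out, so that 232311_at remained.

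**Figure D2:**
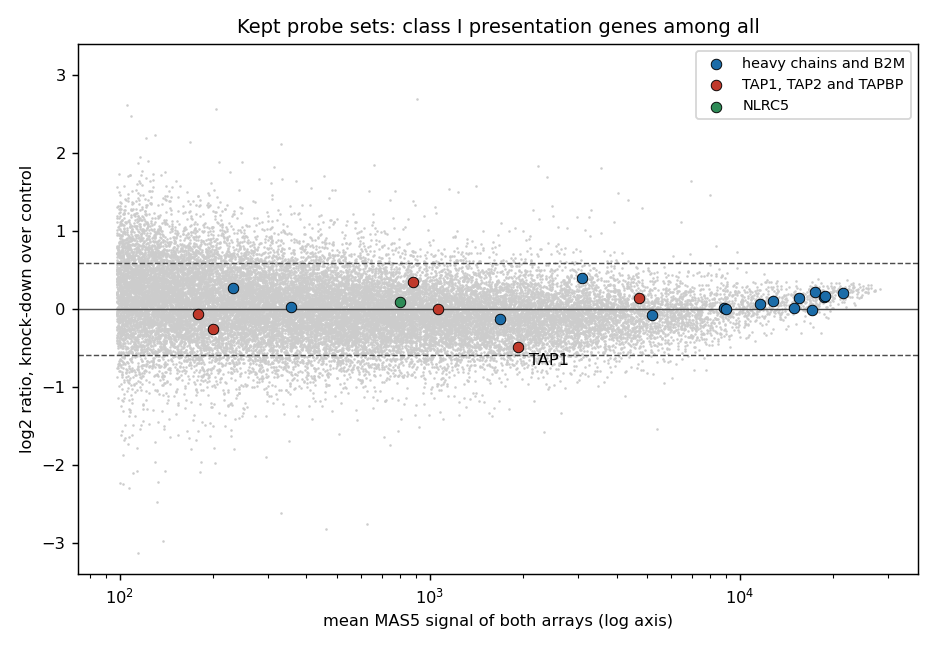
Log2 ratio of PRAME knock-down over control cells against the mean MAS5 signal of both arrays (log axis) for all 27307 probe sets above the filter (grey) and the 23 of the class I presentation genes (heavy chains and B2M blue, TAP1, TAP2 and TAPBP red, NLRC5 green). Dashed lines stand at 1.5-fold. No coloured point is outside these lines, TAP1 (-0.48) is nearest to them, and the spread of the grey points narrows toward high signals.

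The lowest log2 ratio of the 9 genes was found for TAP1, the first subunit of the peptide transporter. Its only probe set, 202307_s_at, had a signal of 2237 with the control vector and 1652 after knock-down, 1.40-fold lower (log2 ratio -0.48). Of the 8560 probe sets with a mean signal between 500 and 2000, 11.1% had a lower log2 ratio. TAP1 was below 0 in the 7 alternative ways of processing that measured it, from -0.58 to -0.39. A gene with 1 probe set cannot be compared between probe sets. Among the 5840 genes with several kept probe sets, the log2 ratios of the probe sets of a gene had a pooled SD of 0.33.

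TAP2, the second subunit, was nearly equal on both arrays in its brightest probe set. The signal of 225973_at was 1040 with the control vector and 1077 after knock-down (log2 ratio 0.0054), and that of 204770_at was 215 and 185 (-0.26). The other two TAP2 probe sets were below the filter. The signal of 204769_s_at was 15.5 and 80.3, a difference that is not well determined at such low signals. With 64 added to both signals, its log2 ratio decreased from 2.32 to 0.82. The signal of 208428_at was 6.1 and 6.6.

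Tapasin had higher or nearly equal signals in the knock-down cells. The TAPBP probe set 208829_at had a signal of 4421 with the control vector and 5035 after knock-down (log2 ratio 0.14), 1555565_s_at had 769.7 and 1013 (0.35), and 210294_at had 181 and 178 (-0.066). NLRC5, the transactivator of class I genes, was measured by 226474_at with a signal of 763 and 841 (0.096). This lies within the spread of probe sets of like signal, of which 69.7% were lower.

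**Figure D3:**
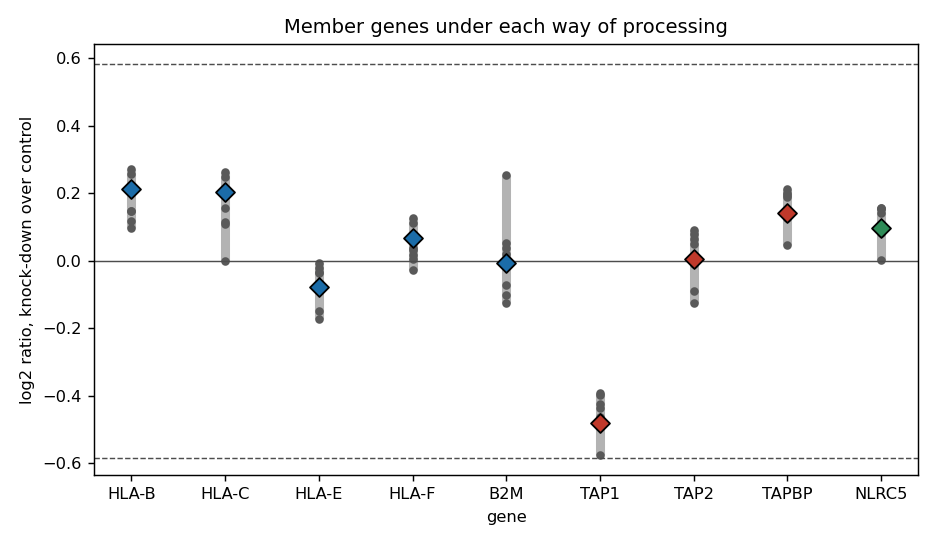
Log2 ratio of PRAME knock-down over control cells for the 9 genes as reported (diamonds) and under up to 8 alternative ways of processing (grey points and bars), with dashed lines at 1.5-fold. TAP1 lies lowest, from -0.58 to -0.39, and no value is past 1.5-fold.

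The position of these genes in the genome was taken from the RefSeq table of GRCh38.p14, in which all 9 were found by gene ID. HLA-B, HLA-C, HLA-E, HLA-F, TAP1, TAP2 and TAPBP belong to the MHC on chromosome 6, B2M lies on chromosome 15 and NLRC5 on chromosome 16. In the MHC from HLA-F to TAPBP, 97 other genes were measured. Their median log2 ratio was 0.0069, 2 were lower and 2 higher by 1.5-fold or more. Among all measured genes 5.42% were lower and 7.54% higher by this threshold. The 651 measured genes of chromosome 6 had a median of -0.072, those of chromosome 15 of -0.00074 and those of chromosome 16 of 0.081.

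TAP1 and PSMB9, an immunoproteasome gene, are neighbours that are read in opposite directions from a common stretch of DNA. Their signals did not go together. PSMB9 had a signal of 3244 with the control vector and 3612 after knock-down (204279_at, log2 ratio 0.11), whereas that of TAP1 was lower. The 250 bases before the start of both genes are shown for this reason, together with those of HLA-B and B2M, whose log2 ratios were 0.21 and -0.0061. The sequences are from RefSeq (GRCh38.p14) and are written in the direction of transcription. Promoter sequences were found for 7 of the 9 genes. For TAP1 the table held a second start, whose stretch (chr6:32852762-32853011) had 0 matches to the motifs below and is not shown. Capitals mark matches, on either strand, to 5 motifs: the core of the interferon-stimulated response element (GAAA, any 2 bases, GAAA; ISRE core below), its shorter form GAANNGAAA, the NF-kB consensus, TGACG, which is part of the X2 box of class I promoters, and CCAAT, which is part of the Y box. Matches may overlap.
HLA-B, chr6:31357180-31357429, minus strand: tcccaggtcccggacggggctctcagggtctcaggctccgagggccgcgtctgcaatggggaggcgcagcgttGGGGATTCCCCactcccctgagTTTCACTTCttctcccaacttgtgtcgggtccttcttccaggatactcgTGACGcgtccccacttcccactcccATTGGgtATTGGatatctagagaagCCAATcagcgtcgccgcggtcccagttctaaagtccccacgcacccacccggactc
B2M, chr15:44711267-44711516, plus strand: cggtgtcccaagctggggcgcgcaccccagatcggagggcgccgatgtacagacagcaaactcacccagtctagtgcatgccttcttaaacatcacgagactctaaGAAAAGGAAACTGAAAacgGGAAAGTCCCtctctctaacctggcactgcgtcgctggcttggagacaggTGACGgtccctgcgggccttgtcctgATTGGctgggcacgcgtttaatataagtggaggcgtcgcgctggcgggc
TAP1, chr6:32853705-32853954, minus strand: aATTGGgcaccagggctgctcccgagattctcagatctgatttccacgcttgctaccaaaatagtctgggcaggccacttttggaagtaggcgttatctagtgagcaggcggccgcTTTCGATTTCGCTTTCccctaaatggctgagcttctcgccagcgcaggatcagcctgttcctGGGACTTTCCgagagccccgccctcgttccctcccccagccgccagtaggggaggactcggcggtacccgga
PSMB9, chr6:32853942-32854191, plus strand: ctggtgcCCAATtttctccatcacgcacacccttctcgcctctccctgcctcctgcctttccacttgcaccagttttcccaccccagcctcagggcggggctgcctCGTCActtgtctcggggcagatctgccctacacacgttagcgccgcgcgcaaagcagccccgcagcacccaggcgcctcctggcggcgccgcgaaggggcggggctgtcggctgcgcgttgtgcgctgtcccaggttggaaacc

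The TAP1 stretch held 2 overlapping matches to the ISRE core (on the other strand, TTTCGATTTCGCTTTC), 1 to the NF-kB consensus (GGGACTTTCC) and 1 to CCAAT. The B2M stretch held 2 to the ISRE core, 1 to the NF-kB consensus, 1 to TGACG and 1 to CCAAT. The HLA-B stretch held 1 to GAANNGAAA, 2 overlapping ones to the NF-kB consensus, 1 to TGACG and 3 to CCAAT. The PSMB9 stretch held 1 to TGACG and 1 to CCAAT. The PSMB9 and TAP1 stretches share 13 bases at their far ends, where the same CCAAT was counted in both. Of all 35116 promoter stretches of this length, 3.02% had a match to the ISRE core, 6.56% to GAANNGAAA, 9.96% to the NF-kB consensus, 21.2% to TGACG and 32.0% to CCAAT. TAP1, B2M, HLA-B and HLA-C (stretch not shown), which all held matches to the NF-kB consensus and CCAAT, had log2 ratios from -0.48 to 0.21. Stretches not shown with a match to the ISRE core were those of TAP2 (log2 ratio 0.0054), HLA-F (0.068), TAPBP (0.14) and PSMB10 (0.51). Whether the motifs had a part in the log2 ratios was not tested. A match describes letters only and does not show that a factor binds there.

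**Figure D4:**
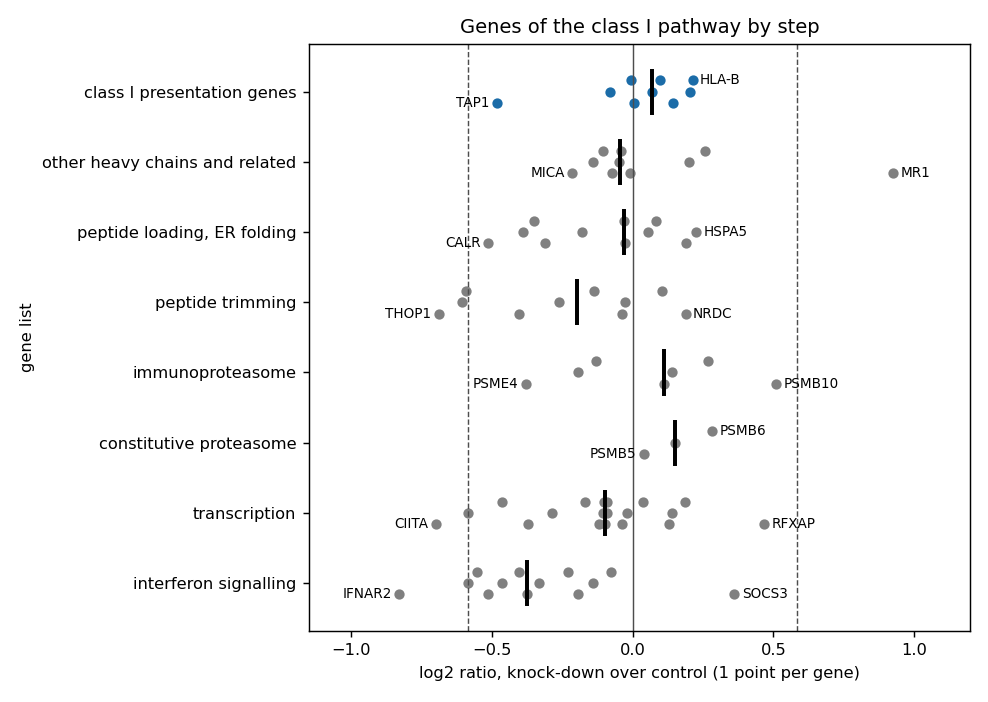
Log2 ratio of PRAME knock-down over control cells for the 9 class I presentation genes (blue) and 7 lists of genes of the same pathway (grey), 1 point per gene (brightest probe set), 1 array per condition. Thick bars are medians, dashed lines stand at 1.5-fold, and the lowest and highest gene of each list are named. The list of interferon signalling lies furthest to the left (median -0.38).

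The 7 lists of other genes of the pathway went in different directions. Their counts past 1.5-fold are to be read beside the 13.0% of all measured genes that passed it, 5.42% lower and 7.54% higher. Among the heavy chains and related molecules, 10 of 23 genes were measured, with a median log2 ratio of -0.045. Only MR1, which presents vitamin B metabolites to T cells, was past 1.5-fold. Its probe set 235352_at had a signal of 434 with the control vector and 851 after knock-down (log2 ratio 0.93, 1.90-fold higher). The 6 kept MR1 probe sets ran from -0.054 to 0.93 with a median of 0.15, so that the difference depended on the probe set. The stress ligands of natural killer cells were slightly below 0 or near 0 in their brightest probe sets. For ULBP1 (263 and 264) and ULBP2 (732 and 751) the deposited signals were slightly higher after knock-down. Their sign below 0 came from the subtracted median of 0.045. MICA had a log2 ratio of -0.22 (signals 559 and 496), MICB of -0.048, ULBP1 of -0.041 and ULBP2 of -0.0092, and the probe set shared by MICA and MICB had 0.21. A further kept ULBP2 probe set, 221291_at, had a log2 ratio of -0.45.

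Chaperones of the endoplasmic reticulum that help class I molecules to fold included the lower CALR, which encodes calreticulin. The signal of 214315_x_at was 2654 with the control vector and 1919 after knock-down (log2 ratio -0.51), and all 3 kept CALR probe sets were below 0 (-0.51 to -0.20). BCAP31, a cargo receptor of the endoplasmic reticulum, had signals of 2545 and 2004 (-0.39), and PDIA3, the disulfide isomerase partner of tapasin, had 6150 and 4976 (-0.35). The PDIA3 probe sets differed in direction (-0.35 to 0.30). All 4 kept probe sets of calnexin (CANX) were below 0, from -0.57 to -0.027. All 11 genes of peptide loading and folding were measured, with a median of -0.031, and 0 of them were past 1.5-fold by their brightest probe sets. HSPA5, the general chaperone BiP, was higher (0.23), and its other kept probe set, 230031_at, had 0.62, past 1.5-fold. HM13, also of this list, had -0.031 in its brightest probe set and -0.61, past 1.5-fold, in 224615_x_at.

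Of the peptidases that trim or destroy peptides, 3 of 10 measured genes were lower and 0 were higher by 1.5-fold or more. Among all measured genes 5.42% were lower and 7.54% higher by this threshold. Of the 3 genes, TPP2 (1.52-fold) and NPEPPS (1.51-fold) passed it only narrowly. The signal of the oligopeptidase THOP1 was 566 with the control vector and 362 after knock-down (203235_at, log2 ratio -0.69). Tripeptidyl peptidase 2 (TPP2) had signals of 1086 and 735 (203375_s_at, -0.61), and all 3 kept TPP2 probe sets were between -0.61 and -0.49. The puromycin-sensitive aminopeptidase NPEPPS had signals of 3364 and 2301 (201455_s_at, -0.59), but its 3 kept probe sets ran from -0.59 to 0.60. The trimming enzymes of the endoplasmic reticulum were nearly equal on both arrays in their brightest probe sets, with log2 ratios of -0.040 for ERAP1 and -0.028 for ERAP2. The 4 kept ERAP1 probe sets ran from -0.092 to 0.76, the highest for 209701_at, and the 2 of ERAP2 from -0.028 to 0.048. The median of the list was -0.20. After quantile normalization, and also without centering, only 1 of these genes was still at least 1.5-fold lower.

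The inducible proteasome subunits had log2 ratios above 0. PSMB10 had a signal of 654 with the control vector and 961 after knock-down (202659_at, log2 ratio 0.51), PSMB8 had 1252 and 1421 (0.14), and the activator subunit PSME1 had 3067 and 3810 (0.27). The median of the 7 measured genes of this list was 0.11. PSME4 (-0.38), PSME3 (-0.13) and the assembly factor POMP (-0.19) were below 0, in all kept probe sets of each gene. For PSME3 the 4 kept probe sets ran from -0.93 to -0.13, and their median of -0.62 was past 1.5-fold. The constitutive subunits that the inducible ones replace were also above 0, with 0.28 for PSMB6, 0.15 for PSMB7 and 0.039 for PSMB5. Neither of the 2 lists had a gene past 1.5-fold.

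Of the 19 measured factors that act on class I promoters, 14 lay below 0 on the log2 scale, with a median of -0.099. Among all 11794 measured genes 6012 were below 0, with a median of -0.0069. Kept probe sets had a median of -0.067 at mean signals of 500 to 2000 and of -0.081 at 2000 to 8000. The median of this list is thus near that of probe sets in these signal ranges. CIITA, the relative of NLRC5 that drives class II genes, was past 1.5-fold in its brightest probe set. The signal of 205101_at was 630 with the control vector and 400.03 after knock-down (log2 ratio -0.70), but 210925_at, with lower signals of 134 and 229.8, had a log2 ratio of 0.74. IRF1, the interferon-induced activator of class I genes, had signals of 1367 and 940.4 for 202531_at (-0.58, just under 1.5-fold) and of 579 and 648 for 238725_at (0.12). The subunits of the RFX complex, which binds class I and class II promoters, differed, with RFXAP higher (1071 and 1529, log2 ratio 0.47, both kept probe sets above 0) and RFX5 (-0.093) and RFXANK (-0.10) near 0. NFYA, a subunit of the factor that binds CCAAT, had signals of 901 and 674 (-0.47) in its brightest probe set. Its 5 kept probe sets ran from -0.62 to 0.045, with 4 of them below 0. The histone methyltransferase EZH2 had a log2 ratio of -0.37.

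Genes of interferon reception and signaling had the lowest median of the 7 lists. In this list 12 of the 13 genes measured lay below 0 with a median of -0.38, whereas 6012 of all 11794 measured genes were below 0. IRF1 (-0.58) was counted in this list and also among the factors that act on class I promoters. At least 1.5-fold lower was only IFNAR2, a chain of the receptor for type I interferon, with a signal of 389 with the control vector and 226 after knock-down (204785_x_at, log2 ratio -0.83). A further kept IFNAR2 probe set had -0.40, and 204786_s_at, below the filter, had signals of 75.9 and 112. IFNAR1, the other chain, had signals of 1184 and 856 (225661_at, -0.51), with 3 of 4 kept probe sets below 0. Of the chains of the interferon gamma receptor, IFNGR1 had signals of 9159 and 6848 (202727_s_at, -0.46) and 5659 and 4200 (211676_s_at, -0.48), but 285 and 398 for 242903_at (0.44), and IFNGR2 had 1867 and 1314 (201642_at, -0.55). The kinase JAK1 was below 0 in all 3 kept probe sets (-0.64 to -0.10). SOCS3, an inhibitor of this pathway, was the only gene of the list above 0 by its brightest probe set (126 and 167, log2 ratio 0.36). Its other kept probe set, 206360_s_at, had 1.15, with the signal of the control cells below the filter. SOCS1, a related inhibitor, had -0.076 in its brightest probe set and a median of 0.086 over 3 kept ones. The kept probe sets of PTPN2 (4, from -0.23 to 0.58, median -0.0075) and of JAK2 (3, from -0.57 to 0.53) also lay on both sides of 0.

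IFNAR2, IFNAR1 and IFNGR2 are neighbours on chromosome 21. The median over the 125 genes measured there was -0.17. The genes next to them lay on both sides of 0. On one side of the 3 genes, SYNJ1 had a log2 ratio of -0.39, PAXBP1 of 0.33, PAXBP1-AS1 of 0.26 and EPCIP-AS1 of 0.50, IL10RB between them had -0.069, and on the other side TMEM50B had -0.49, GART -0.39, SON -0.27 and DONSON -0.29. IFNGR1 lies on another chromosome. Whether the position of these genes had a part in their lower signals was not tested. Across 8 alternative ways of processing the median of the interferon list remained below 0, from -0.47 to -0.24.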

How the data were processed

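RNA of L-428 cells with the control vector and of PRAME knock-down cells was hybridized by the authors with 1 array each (54675 probe sets; the series description names another cell line and array type, the sample labels were followed). The deposited values are MAS5 signal intensities on a linear scale, made by the authors with Affymetrix Expression Console 1.1. Detection calls and RMA values were not used here. MAS5 summarizes probe pairs after background subtraction, and a signal can still contain binding of similar transcripts.

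From these, 62 control probe sets were left out, log2 signals were taken without an offset, and the brighter part of the probe sets was kept (27307, mean log2 signal not below the median, which is a signal of 97.7). The median of their log2 ratios was subtracted. The brightest kept probe set stood for a gene. Names came from the platform annotation (1 symbol for 41097 probe sets, several for 1801, none for 11777). With 1 array per condition no test was made, and precision is limited by the number of arrays; thresholds were 1.5-fold and 2-fold. The genes and lists were chosen with earlier results of these data known. Named are all probe sets of the 9 genes and, of each list, genes past 1.5-fold or the largest differences; further genes were named after their values were seen.

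Alternatively, the center was not subtracted, quantile normalization or a loess curve against signal (span 0.4) was used, 64 was added to the signals, the filter was omitted or set at the 75th percentile, the probe sets of a gene were summarized by their median, or probe sets ending in _s_at, _x_at or _a_at were left out. Scripts were tested on simulated data. Software was matplotlib 3.10.9, numpy 2.4.6, pandas 2.3.3, scipy 1.17.1 and statsmodels 0.14.6 under Python 3.11.15.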

Additional observations from a re-analysis of the deposited data

How the results depend on the processing

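No paired analysis was possible because there is 1 array per condition; for the same reason no array could be left out. The count of class I presentation genes past 1.5-fold was 0 under all 8 alternatives, and the median of the 9 genes ran from -0.027 without a filter to 0.13 with the filter at the 75th percentile. Without the endings _s_at, _x_at and _a_at, HLA-B, HLA-C and TAP1 had no probe set. HLA-E, TAPBP and NLRC5 kept their sign in 8 of 8 alternatives and HLA-B and TAP1 in 7 of 7. HLA-C turned from 0.20 to -0.00023 after quantile normalization and HLA-F from 0.068 to -0.027 without a filter. B2M kept its sign in 4 and TAP2 in 5 of 8.

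The counts of the lists past 1.5-fold were small and moved. Lower trimming genes were 3 as reported, 1 without centering, after quantile normalization, after loess, with the offset of 64, with the median of probe sets and without the endings, and 0 with the filter at the 75th percentile. Without a filter, which also moves the center, 4 heavy chain and related genes were higher, and 1 gene of peptide loading, 2 of transcription and 4 of interferon signalling were lower. With the median of probe sets, 0 heavy chain and related genes and 1 interferon gene were higher, and 1 immunoproteasome gene and 0 transcription genes were lower. Without the endings 2 transcription genes were lower, and with the filter at the 75th percentile 0 interferon genes. The cause was not tested. Among all measured genes past 1.5-fold, 41.8% were lower, and 33.9% to 51.8% under the alternatives. These were 639 lower and 889 higher genes as reported, 2331 and 3480 without a filter, 273 and 254 with the filter at the 75th percentile, and 468 and 490 with the offset of 64. Signals below the filter give no well-determined ratio.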

Other observations

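In the MHC from HLA-F to TAPBP, the genes that were past 1.5-fold do not belong to class I presentation. The cytokine gene TNF had a signal of 558 with the control vector and 288 after knock-down, and PPP1R11, an inhibitor of protein phosphatase 1, had 3610 and 2352 (-0.66). TRIM10 had 87.7 and 168 (0.89), with the lower signal under the filter of 97.7, and the collagen gene COL11A2 had 246 and 457 (0.85). The 10 measured MHC class II genes of this stretch (pseudogenes not counted), which present peptides to CD4+ T cells, had a median log2 ratio of -0.055 and ran from -0.45 for HLA-DMA, which helps to load class II molecules, to 0.10, so that 0 of them were past 1.5-fold.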
